A study of Homo sapiens with 8 samples.

Results

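Oxidative phosphorylation (OXPHOS) genes were chosen by their symbols: the NDUF genes of complex I, SDHA to SDHD of complex II, the UQCR genes of complex III, the nuclear COX4 to COX8 genes of complex IV, the ATP5 genes of complex V, and the mitochondrially encoded mRNAs. The rule took 110 of the 20344 gene symbols in either deposited table, and the rule itself uses no measured value. Of these, 97 are nuclear and 13 are mitochondrial, and the 2 sets are described apart. The nuclear set holds 79 subunit genes, the ATP synthase inhibitor ATP5IF1, 12 pseudogenes, 3 antisense or divergent RNAs and 2 read-through transcripts. Of the 110 genes, 109 were in the table of the crowding comparison and 105 in that of the ETV4 KD.

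The RNA came from H9, an established human embryonic stem cell (hESC) line, cultured on Matrigel in stem cell medium. For crowding, 2 libraries of hESCs at low density were compared with 2 libraries of hESCs at high density, in which cells grew only on small Matrigel drops. The labels call these groups small and crowded, and low and high density are the names the study uses. For the knockdown (KD), 2 libraries of cells with a control hairpin (shControl) were compared with 2 libraries of cells with a hairpin against the ETS factor ETV4 (shETV4), and which hairpin was used is not given in the sources used here. All 8 libraries were made from poly-A RNA of the 1 cell line, and the labels do not say whether replicates came from separate cultures, so p-values measure the spread between these libraries only. The summed gene counts were 50359703 and 59957148 for the low-density libraries, 55365694 and 62410168 for the high-density libraries, 55028105 and 52155822 with shControl, and 56630652 and 52790532 with shETV4. The 10 hESC markers examined were all expressed in every library, with POU5F1 between 1016 and 1405 FPKM (fragments scaled to transcript length and to the mapped reads of the library), and ETV4 was at 90.8 and 95.1 FPKM with shControl and 45.6 and 40.9 FPKM with shETV4.

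OXPHOS couples the transfer of electrons along complexes I to IV to proton pumping across the inner mitochondrial membrane, and complex V uses the resulting gradient to make ATP. Most subunits are encoded in the nucleus, while mitochondrial DNA (mtDNA) encodes a core set for complexes I, III, IV and V and none for complex II. mtDNA is transcribed from both strands into long precursors that are cut into single RNAs, and ND4L with ND4 and ATP8 with ATP6 stay together as bicistronic mRNAs. Human pluripotent stem cells are known for relying strongly on glycolysis while their mitochondria still respire.

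Sequences around the starts of the nuclear genes are shown first, for the gene with the largest rise at high density and for the motif letters that members shared. The 300 bases around the start (250 before and 50 after, RefSeq, GRCh38.p14) were given for 66 of the 79 nuclear subunit genes. NRF1 (the palindrome in capitals in the next 4 sequences) and YY1 (AAGATGG) are factors known to act on nuclear genes for mitochondria, and CCGGAAG is the core that ETS factors such as GABP and ETV4 can bind. The letters were searched on both strands, and the end of the ETS motif can overlap the beginning of the YY1 motif. The ETS letters were found in 21 of the 66 members (31.8%), against 20.2% of 12238 tested coding genes with such a window and 12.2% of all 27305 windows. The YY1 letters were found in 18 members (27.3%), against 8.58% of tested coding genes and 7.11% of all windows. The NRF1 letters were found in 4 members (6.06%), against 2.41% and 1.52%. A match is a description of letters and not a binding site. COX6B2, whose rise at high density was the largest, held none of the 3 motifs, and the 250 bases before its start are chr19:55354720-55354969 on the minus strand:
COX6B2: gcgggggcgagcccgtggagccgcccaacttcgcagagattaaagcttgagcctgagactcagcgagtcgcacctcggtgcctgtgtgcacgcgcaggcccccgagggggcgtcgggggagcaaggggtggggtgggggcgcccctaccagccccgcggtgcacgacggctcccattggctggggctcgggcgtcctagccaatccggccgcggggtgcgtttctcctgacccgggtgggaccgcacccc

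The 4 members with the NRF1 letters are shown with 30 bases on the strand of the gene and the motif in capitals. NDUFA8 lies at chr9:122159764-122159793 (minus strand), NDUFB4 at chr3:120596167-120596196 (plus), ATP5F1C at chr10:7788145-7788174 (plus) and SDHD at chr11:112086753-112086782 (plus). Of these, NDUFA8 was lower after ETV4 KD (log2 fold change -0.48) and, close to the threshold, after crowding (-0.19, adjusted p = 0.0415 with edgeR). NDUFB4 was higher after crowding (0.16, adjusted p = 0.0325). Of all genes tested, 39.7% passed after crowding and 21.5% after ETV4 KD.
NDUFA8: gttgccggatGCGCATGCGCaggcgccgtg
NDUFB4: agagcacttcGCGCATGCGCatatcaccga
ATP5F1C: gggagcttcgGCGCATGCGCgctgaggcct
SDHD: agctgtgtttGCGCATGCGCgacgggtgtg

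Of the 21 members with the ETS letters, 5 passed the test after crowding (an adjusted p below 0.05), against 39.7% of all genes tested. These were ATP5PD, which was higher, and NDUFS3, UQCRQ, ATP5MG and ATP5MD, which were lower. Their sequences are shown in the same way, from chr17:75047052-75047081 (minus strand), chr11:47578961-47578990 (plus), chr5:132866577-132866606 (plus), chr11:118401596-118401625 (plus) and chr10:103396620-103396649 (minus), with the 1st of 2 matches shown for NDUFS3 and the 1st of 3 for ATP5MD. In the stretches shown, the capitals read CCGGAAG in UQCRQ and its reverse complement in the other 4. The match of NDUFS3 that is not shown reads CCGGAAG on the strand of the gene, and so does the next match of ATP5MD, which overlaps the capitals shown for it. After ETV4 KD, 0 of the 21 passed in either direction with edgeR or DESeq2, against 21.5% of all genes tested with edgeR, and 2 were lower at an unadjusted p below 0.05. Of the 18 members with the YY1 letters, 5 were higher and 4 lower after crowding, and 1 was higher after ETV4 KD.
ATP5PD: ccgggaagataCTTCCGGaaccagccctca
NDUFS3: cggaacctccgCTTCCGGctccacgtccgc
UQCRQ: aatggtatctcCCGGAAGttacctcacgac
ATP5MG: tgcagcgggtcCTTCCGGcgggtgacattc
ATP5MD: ccagtgcaattCTTCCGGaagtgtgggcgg

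The mRNAs of the mitochondrial genome were far more abundant per length than those of the nuclear subunit genes. In the crowding table the median over the 13 mitochondrial genes was 4188 FPKM, from 415.5 FPKM for ND6 to 10720 FPKM for COX3, and over the 79 nuclear subunit genes it was 57.9 FPKM. In the ETV4 KD table the medians were 3564 and 70.2 FPKM. ND6 is the one mitochondrial mRNA transcribed from the other strand. The most abundant nuclear subunit genes in both tables were NDUFS5 of complex I, SDHD of complex II, UQCRH of complex III, COX7C of complex IV and ATP5F1B, the catalytic beta subunit of ATP synthase, which led the nuclear set with 451.8 FPKM in the crowding table. UQCRH has a near-copy, UQCRHL, so the split of reads between these 2 is uncertain.

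To ask whether crowding changes the RNA of the respiratory chain, low and high density were compared, starting with the mitochondrial genes. At high density the 13 mitochondrial mRNAs all lay above 0 in log2 fold change, from 0.08 to 0.34 with a median of 0.19, and 9 of 13 (69.2%) were higher with an adjusted p below 0.05 (edgeR, quasi-likelihood test, Benjamini-Hochberg over the 17672 genes tested). The background was 19.4% of all genes tested in that direction, and the median over all of them was 0.0032. In the lower direction the count was 0 with edgeR, 0 at an unadjusted p below 0.05 and 0 with DESeq2. The differences were small: no mitochondrial gene was a DEG, taken as an adjusted p below 0.05 with an absolute log2 fold change over 0.5, by edgeR or by DESeq2. The FPKM of the 2 densities did not overlap, with high density above, for 11 of the 13, against 41.2% of all genes tested. The count of higher genes was 7 without high-density replicate 1 or low-density replicate 2, and 13 without high-density replicate 2.

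The complex I genes ND4L, ND4 and ND5, which are neighbours on mtDNA, had the largest rises. ND4 was at 4608 and 4306 FPKM at low density and 5993 and 5756 FPKM at high density (log2 fold change 0.34, SE 0.04, adjusted p = 1.48e-06). ND4L went from 3674 and 3582 FPKM to 4771 and 4727 FPKM. ND5 went from 1382 and 1240 FPKM to 1705 and 1604 FPKM, a log2 fold change of 0.28 (SE 0.05, adjusted p = 3.82e-04). The high-density libraries were above the low-density libraries for each of these 3 genes. Since ND4L and ND4 overlap and share an mRNA, they are not independent measurements. ND3, also of complex I, went from 1394 and 1369 FPKM to 1713 and 1582 FPKM, and its call was lost without low-density replicate 2 (adjusted p = 0.0656).

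The complex IV genes COX1, COX2 and COX3, which encode its catalytic core, were all higher. COX1 was at 7461 and 7371 FPKM at low density and 8764 and 8869 FPKM at high density (log2 fold change 0.19, SE 0.03, adjusted p = 8.08e-05). COX2 went from 8456 and 7940 FPKM to 9919 and 9608 FPKM. COX3 had a smaller rise, with a log2 fold change of 0.12 (SE 0.03, adjusted p = 0.00671), and its adjusted p was 0.0993 without high-density replicate 1. Of the complex V genes, ATP8 rose by 0.21 (SE 0.05, adjusted p = 0.00132) and ATP6 by 0.13 (SE 0.04, adjusted p = 0.0226), and the 2 open reading frames overlap. The call for ATP6 was lost with DESeq2 (adjusted p = 0.0773), without low-density replicate 2 (0.125) and without high-density replicate 1 (0.266).

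The other 4 mitochondrial mRNAs did not pass the test. ND1 was at 2655 and 2481 FPKM at low density and at 3187 and 2589 FPKM at high density, so that the groups overlapped. CYTB, the complex III subunit, was at 2335 and 2251 FPKM and at 2813 and 2322 FPKM, with the same overlap. ND2 had a log2 fold change of 0.08 (SE 0.05). High-density replicate 1 was the higher library in all 3 of these genes, and without it their log2 fold changes were -0.05, -0.04 and -0.02 for ND1, CYTB and ND2. ND6 had a log2 fold change of 0.15 with an adjusted p of 0.0505, next to the threshold.

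**Figure D1:**
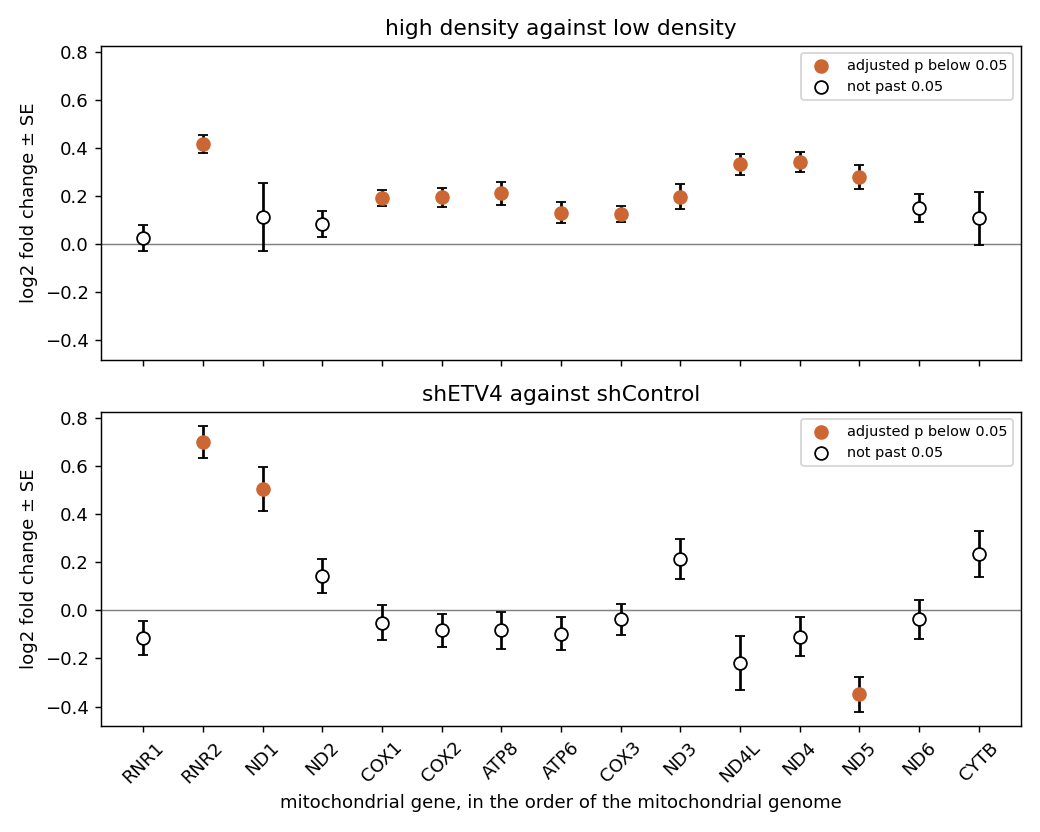
Log2 fold change (y axis, with bars of 1 standard error) of the 2 rRNAs and 13 mRNAs of the mitochondrial genome in their order on mtDNA (x axis), for high against low density (upper panel) and shETV4 against shControl (lower panel), with 2 libraries in each group; filled points have an adjusted p below 0.05. After crowding all mRNAs lie above 0 with ND4L, ND4 and ND5 highest, and after ETV4 KD RNR2 and ND1 lie above 0.5 and ND5 lies lowest at -0.35.

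The share of all counts on genes that fell on the 13 mitochondrial mRNAs was 5.77% and 5.61% at low density and 6.82% and 6.57% at high density. The means were 5.69% ± 0.109 (SD, n = 2) and 6.70% ± 0.180 (SD, n = 2), a ratio of 1.18. The exact two-sided permutation test gave p = 0.333, which is the smallest value that 2 against 2 libraries allow. The nuclear subunit genes together took 0.742% and 0.744% of counts at low density and 0.772% and 0.801% at high density. In bulk RNA of this kind, more RNA per cell and more cells with that RNA cannot be told apart.

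**Figure D2:**
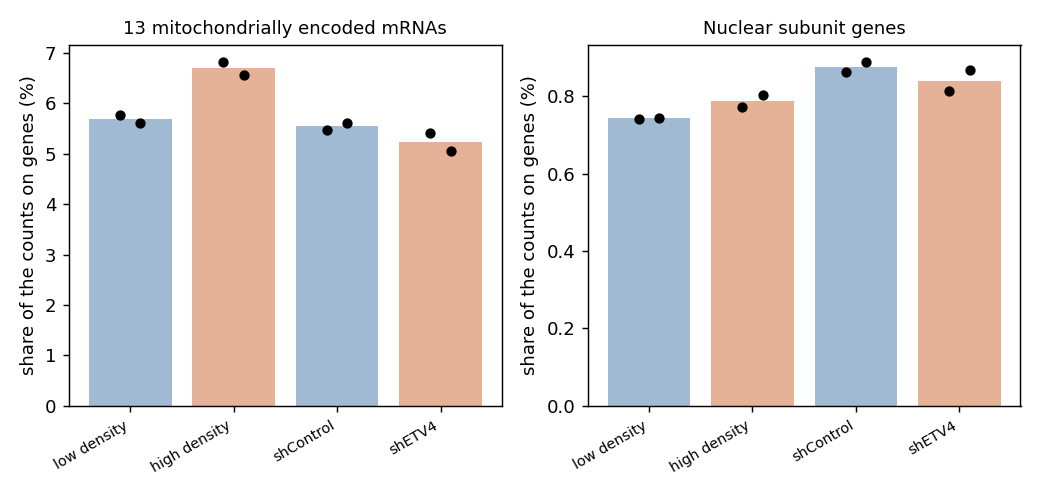
Share of the counts on genes (y axis, %) that fell on the 13 mitochondrial mRNAs (left) and on the nuclear subunit genes (right) in each group of 2 libraries; bars are means and points are libraries. The mitochondrial share lies at 5.77% or below in the low-density libraries and at 6.57% or above in the high-density libraries, and the 2 ETV4 KD groups do not overlap either, at 5.47% and 5.62% against 5.42% and 5.05%.

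The 2 mitochondrial rRNAs, which the symbol rule does not take, did not move together. RNR2, the large rRNA, went from 1864 and 1929 FPKM to 2584 and 2682 FPKM, a log2 fold change of 0.42 (SE 0.04, adjusted p = 4.08e-08). RNR1, the small rRNA, had a log2 fold change of 0.02 (SE 0.05, adjusted p = 0.755). Poly-A libraries do not measure rRNA evenly, and RNR2 has nuclear near-copies, so its reads may be shared with them.

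The nuclear subunit genes moved in both directions after crowding. Of the 79 tested, 17 (21.5%) were higher, 10 (12.7%) were lower and 52 did not pass, against 19.4% higher, 20.3% lower and 39.7% in either direction among all genes tested. Their median log2 fold change was 0.02, with 44 genes above 0 and 35 below. DEGs numbered 3, all higher: COX6B2, NDUFA4L2 and ATP5PD, against 10.7% higher and 5.47% lower DEGs in the background. NDUFA4L2 was kept in the test through its high-density counts alone, so its direction carries no weight here. In the lower direction DEGs numbered 0 with edgeR, with DESeq2 and at an unadjusted p below 0.05. The counts moved with the low-density libraries: without low-density replicate 1 they were 11 higher and 5 lower, and without low-density replicate 2 they were 8 and 4. With limma on FPKM they were 25 and 4.

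COX6B2 is a testis isoform of a small complex IV subunit. It was at 0.666 and 0.633 FPKM at low density and at 3.42 and 3.68 FPKM at high density (log2 fold change 2.34, SE 0.18, adjusted p = 3.64e-09). The rise rested on 77 and 82 counts against 394 and 499. It was found in both high-density libraries, and the log2 fold change stayed between 2.25 and 2.43 when any 1 library was dropped. COX6B2 lies on chromosome 19 of GRCh37 from 55860674 to 55866087 (minus strand), in a span that overlaps an unnamed gene. Its widely expressed partner COX6B1 remained far more abundant, at 134.9 and 143.4 FPKM at low density and 150.7 and 161.5 FPKM at high density (log2 fold change 0.11, adjusted p = 0.158).

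NDUFA4L2, a hypoxia-induced relative of NDUFA4, was barely detected. It was at 0.111 and 0.0417 FPKM at low density and 0.402 and 0.361 FPKM at high density, which were 8 and 4 counts against 30 and 31. Its log2 fold change was 2.17 (SE 0.52, adjusted p = 0.00214), and 1.64 without low-density replicate 2. High-density counts alone kept the gene in the test, so its fold and adjusted p are not read as a rise. The gene overlaps SHMT2 on chromosome 12 (57628686 to 57634498), and no source used here says if strand was used in counting, which leaves these few counts uncertain. NDUFA4, named after complex I and known as a subunit of complex IV, was at 64.8 and 64.9 FPKM at low density and 76.3 and 79.5 FPKM at high density (log2 fold change 0.21, SE 0.06, adjusted p = 0.00594). This call was lost without either low-density library (adjusted p = 0.0679 and 0.104).

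ATP5PD, a subunit of the peripheral stalk of ATP synthase, was the one abundant nuclear DEG. It was at 104.7 and 95.2 FPKM at low density and at 144.3 and 159.1 FPKM at high density (log2 fold change 0.54, SE 0.06, adjusted p = 1.44e-06). The libraries did not overlap, and its log2 fold change lay between 0.48 and 0.62 when any 1 library was dropped. ATP5PD lies on chromosome 17 from 73034958 to 73043080, where its span overlaps KCTD2 on the other strand. KCTD2, at 11.98 and 11.4 FPKM against 15.0 and 14.6 FPKM, rose by 0.28 (adjusted p = 0.00127).

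**Figure D3:**
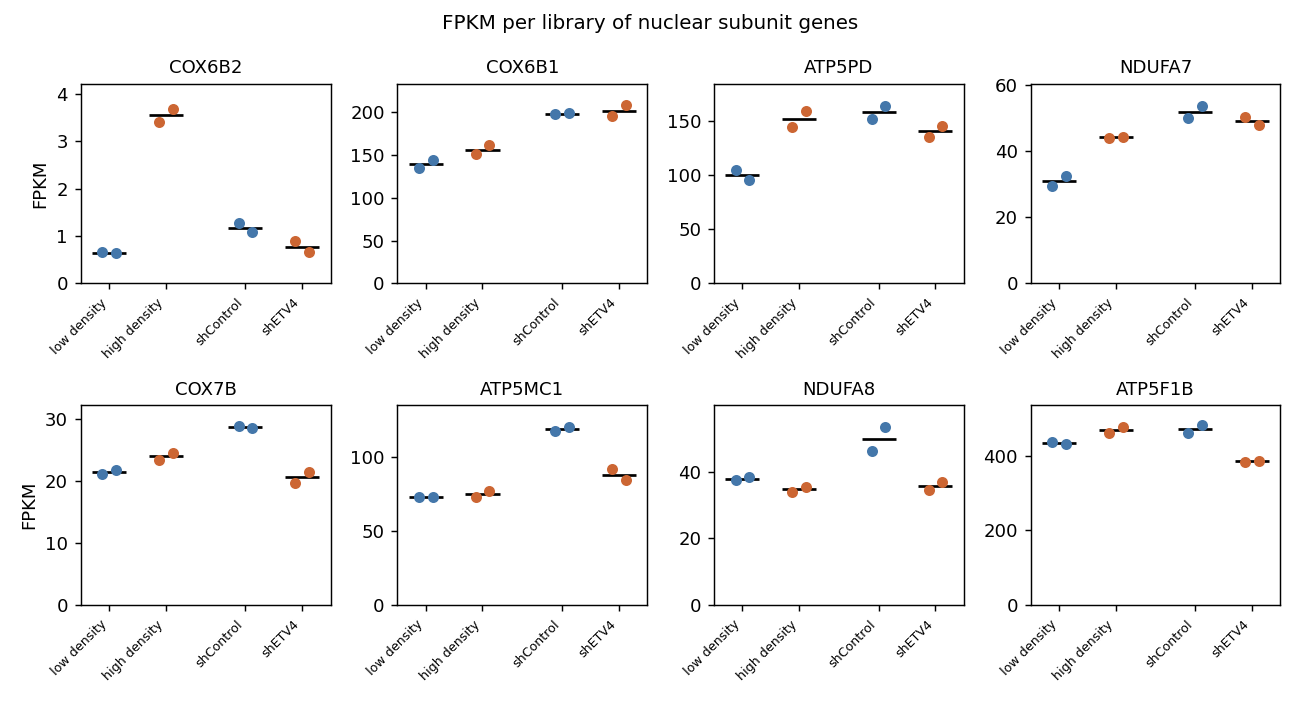
FPKM (y axes, linear and starting at 0) of 8 nuclear subunit genes in each of the 8 libraries; points are libraries, lines are group means, and the density and hairpin experiments were normalized apart. COX6B2 reaches 3.42 and 3.68 FPKM at high density, ATP5PD and NDUFA7 lie higher at high density, and COX7B, ATP5MC1, NDUFA8 and ATP5F1B lie lower with shETV4 than with shControl.

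Of the 38 complex I genes, 9 (23.7%) were higher and 6 (15.8%) lower, with a median of -0.01, against 19.4% and 20.3% of all genes tested. By their symbols NDUFA4 and NDUFA4L2 are counted here and not with complex IV. Both are among the higher genes, NDUFA4L2 through its high-density counts alone. NDUFA7, an accessory subunit, went from 29.4 and 32.6 FPKM to 44.0 and 44.4 FPKM, a log2 fold change of 0.44 (SE 0.08, adjusted p = 1.47e-04). Its span overlaps RPS28 and a read-through transcript. NDUFS7, which carries an iron-sulphur cluster of the core, went from 29.0 and 29.9 FPKM to 39.6 and 41.3 FPKM (log2 fold change 0.38, SE 0.07, adjusted p = 3.25e-04). NDUFS3, another core subunit, went the other way, from 66.2 and 62.6 FPKM to 53.0 and 49.7 FPKM (log2 fold change -0.38, SE 0.06, adjusted p = 7.26e-05). NDUFA9 fell from 5.57 and 5.96 FPKM to 4.804 and 4.83 FPKM, and NDUFB9 from 142.8 and 137.5 FPKM to 120.3 and 119.5 FPKM. In each of these 5 genes the libraries of the 2 densities did not overlap, as in 41.2% (higher) and 29.0% (lower) of all genes tested.

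Complex IV was the complex whose nuclear genes all lay above 0. The 11 genes had a median log2 fold change of 0.11, 4 were higher (COX6B2, COX7C, COX7A2 and COX6C) and 7 did not pass, against 19.4% higher and 20.3% lower and a median of 0.0032 among all genes tested. In the lower direction the count was 0 with edgeR, at an unadjusted p below 0.05 and with DESeq2. COX7C, the most abundant of them, went from 292.6 and 284.5 FPKM to 341.4 and 375.6 FPKM (log2 fold change 0.26, SE 0.06, adjusted p = 0.00154). COX7A2 rose by 0.19 (adjusted p = 0.0174), a call that was lost without low-density replicate 2 (adjusted p = 0.285). The ubiquitous isoforms COX4I1 (0.03), COX6A1 (0.10), COX7B (0.11) and COX8A (0.09) did not pass the test, and the value of COX4I1 turned to -0.01 when FPKM were fitted in place of counts. The tissue isoforms COX4I2, COX6A2, COX7A1, COX7B2 and COX8C had no row in the tables used here.

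Complex V had 2 genes higher, ATP5PD and ATP5MC2 (0.20), and 3 lower, ATP5PB (-0.22), ATP5MD (-0.21) and ATP5MG (-0.20), with a median of -0.06 over 17 genes. These were 11.8% higher and 17.6% lower, and the background of 19.4% and 20.3% holds for complexes II and III too. ATP5PB is, like ATP5PD, part of the peripheral stalk, and went from 51.2 and 52.3 FPKM to 46.4 and 46.2 FPKM, and its call was lost without low-density replicate 2 (adjusted p = 0.111). ATP5MD lost its call without either low-density library (adjusted p = 0.0559 and 0.165). In complex III, UQCRC2, a core subunit, was higher (0.17) and UQCRQ was lower (-0.20) among 9 genes. In complex II, SDHC, a membrane anchor, was higher (0.26, adjusted p = 0.00142) among 4 genes, but its FPKM overlapped between the densities, at 17.5 and 13.02 against 18.0 and 16.9. SDHA, the catalytic subunit, was at 26.6 and 27.5 FPKM and at 29.1 and 33.1 FPKM (adjusted p = 0.0667). SDHC, UQCRC2, UQCRQ, ATP5MC2, ATP5MG and COX6C were picked out once their values were known.

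**Figure D4:**
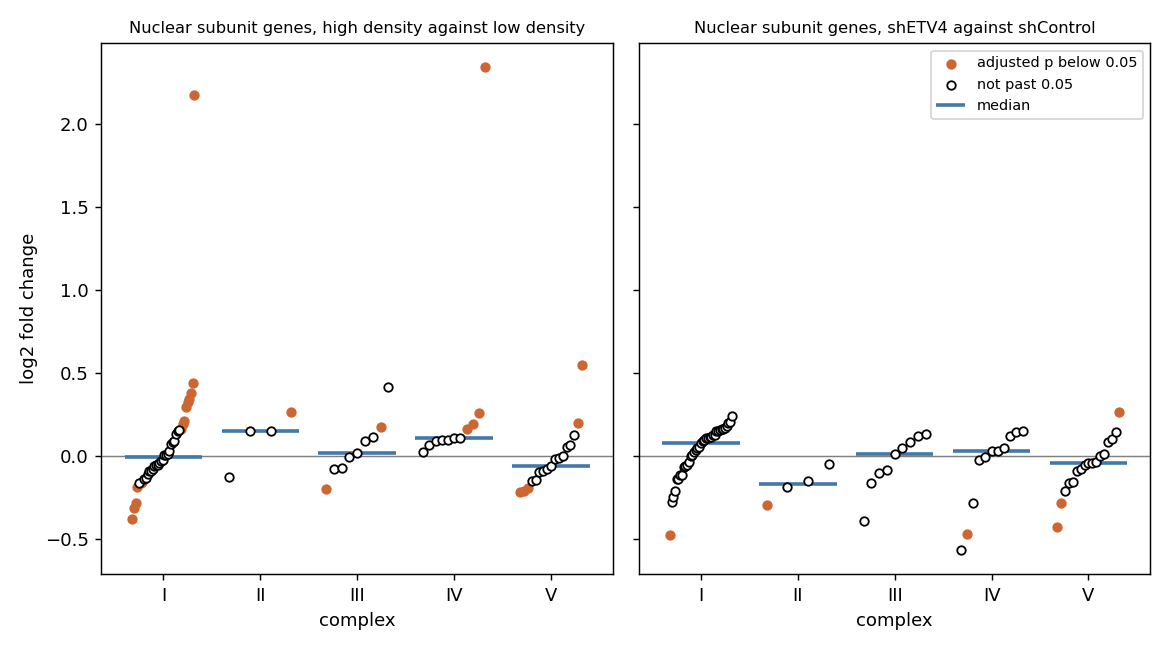
Log2 fold change (y axis) of each nuclear subunit gene by complex (x axis), for high against low density (left, 79 genes) and shETV4 against shControl (right, 78 genes), with 2 libraries in each group; filled points have an adjusted p below 0.05 and lines are medians. Most genes lie near 0, COX6B2 (2.34) stands above the rest after crowding, and complex IV lies wholly above 0 on the left. The point of NDUFA4L2 (2.17) is not read as a rise, since high-density counts alone kept the gene in the test.

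The remaining nuclear entries were the inhibitor ATP5IF1, at 118.6 FPKM on average in the crowding table, and RNAs that were mostly low. ATP5IF1 had a log2 fold change of -0.07 after crowding and 0.05 after ETV4 KD, with neither past the test. With ATP5IF1 included, 9 entries that are not subunit genes had enough counts to be tested after ETV4 KD. All 9 missed the threshold (the pseudogene UQCRBP1 had a log2 fold change of -1.24, SE 0.50), while 21.5% of all genes tested passed. After crowding 8 were tested, of which 1 was higher and 1 lower, against 19.4% and 20.3% of all genes tested. The divergent RNA NDUFA6-DT was higher (0.99, adjusted p = 0.0392), from 0.279 and 0.402 FPKM to 0.424 and 1.00 FPKM, a difference that rested on high-density replicate 2 (0.26 without it, adjusted p = 0.675) and was not past the test without low-density replicate 1 either. The antisense RNA NDUFB2-AS1 was lower (-1.13, adjusted p = 0.0251), at 0.382 and 0.337 FPKM against 0.198 and 0.141 FPKM. Its log2 fold change lay between -1.40 and -0.89 when any 1 library was dropped.

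Next, genes that act around the respiratory chain were counted. The counts for genes that copy, transcribe and translate mtDNA had more lower than higher calls at high density, while those for the mitochondrial mRNAs had only higher calls. Of 77 mitochondrial ribosomal protein genes, 30 (39.0%) were lower and 3 (3.9%) were higher, with a median log2 fold change of -0.14, against 20.3% and 19.4% in the background. The 3 furthest from 0 were MRPL36 (-0.48, adjusted p = 6.25e-05), MRPL49 (-0.44, adjusted p = 1.70e-05) and MRPL1 (-0.43, adjusted p = 3.15e-04). MRPL36 went from 35.9 and 35.8 FPKM to 26.4 and 27.0 FPKM. The count of lower genes was 16 without low-density replicate 1, 13 without low-density replicate 2, and 19 when FPKM were fitted with limma. These differences were small, and no gene of this list was a DEG by edgeR, at an unadjusted p or by DESeq2.

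Of 32 genes for mtDNA maintenance and expression, 12 (37.5%) were lower and 1 was higher, with a median of -0.15, against 20.3% and 19.4% of all genes tested. Among those past the test, the 3 furthest from 0 were the transcription factor family member MTERF3 (-0.35), the tRNA processing enzyme ELAC2 (-0.35) and the single-stranded DNA binding protein SSBP1 (-0.31). SSBP1 went from 174.7 and 160.3 FPKM to 137.4 and 142.8 FPKM (adjusted p = 3.27e-04). TFAM, which packages mtDNA and starts its transcription, went from 25.1 and 25.5 FPKM to 23.1 and 22.6 FPKM (-0.20, adjusted p = 0.0070). The gene that rose was LRPPRC (0.15, adjusted p = 0.0198), which binds mitochondrial mRNAs and is known to keep them stable, from 56.4 and 55.8 FPKM to 63.3 and 66.4 FPKM. Without low-density replicate 2 the count of lower genes was 7, and LRPPRC did not pass without either low-density library. TFAM and LRPPRC were chosen with their values known.

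Assembly factors were mixed. For complexes II to V, 12 of 37 (32.4%) were lower and 6 (16.2%) higher, with a median of -0.06, against 20.3% lower and 19.4% higher in the background. The largest difference was the rise of SDHAF4, an assembly factor of complex II, from 3.21 and 3.11 FPKM to 5.59 and 7.57 FPKM (log2 fold change 1.00, SE 0.16, adjusted p = 3.85e-05). COA5 (0.45) was higher and UQCC3 (-0.36) was lower. For complex I, 2 of 16 were higher, NDUFAF7 (0.51, adjusted p = 4.47e-07) and NDUFAF3 (0.47), and 3 were lower, namely NDUFAF8 (-0.44), TIMMDC1 (-0.31) and NDUFAF4 (-0.31). NDUFAF3 did not pass without low-density replicate 1 (adjusted p = 0.119). The lower count for complexes II to V was 5 without low-density replicate 1 and 6 without low-density replicate 2.

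Of 26 genes of pyruvate oxidation and the TCA cycle, 7 (26.9%) were higher and 5 (19.2%) lower, with a median of -0.01, against 19.4% and 20.3% in the background. PDK3, a kinase that switches off pyruvate dehydrogenase, rose from 3.82 and 3.70 FPKM to 6.53 and 7.07 FPKM (log2 fold change 0.82, SE 0.06, adjusted p = 2.22e-09). PDP1, a phosphatase that switches it back on, fell from 8.59 and 9.47 FPKM to 6.58 and 6.84 FPKM (-0.49, adjusted p = 1.74e-05). IDH2, the mitochondrial isocitrate dehydrogenase that makes NADPH, rose by 0.60 (adjusted p = 3.92e-07), from 19.3 and 18.8 FPKM to 28.8 and 31.6 FPKM. Without either low-density library the counts were 3 higher and 1 lower.

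Among 9 nuclear regulators of mitochondrial genes, 3 (33.3%) were higher and 2 (22.2%) lower, and among 11 carriers and porins 3 (27.3%) were higher and 1 (9.09%) lower, against 19.4% and 20.3% of all genes tested. The coactivator PPARGC1A went from 0.296 and 0.356 FPKM to 0.479 and 0.616 FPKM (0.65, adjusted p = 0.00965), and the call was lost without low-density replicate 1 (adjusted p = 0.103) or high-density replicate 2 (0.0664). ESRRG, a nuclear receptor, was higher at a very low level (0.67, 0.183 and 0.204 FPKM against 0.281 and 0.335 FPKM), and did not pass without low-density replicate 1 (adjusted p = 0.145), low-density replicate 2 (0.122) or high-density replicate 2 (0.150). PPARGC1B was higher (0.23). GABPB1, a partner of the ETS factor GABPA, fell from 9.14 and 9.18 FPKM to 7.11 and 7.19 FPKM (-0.42, adjusted p = 4.78e-05), and PPRC1 fell by 0.24. The count of higher regulators was 0 without low-density replicate 1 and with limma on FPKM. The lower porin was VDAC3 (-0.26). SLC25A6, a carrier that exchanges ADP for ATP, rose from 133.3 and 131.9 FPKM to 172.7 and 173.6 FPKM (0.33, adjusted p = 6.41e-05), SLC25A4 of the same family rose by 0.17, and SLC25A27 rose by 0.58. The count of higher carriers was 1 without low-density replicate 2, where SLC25A27 did not pass (adjusted p = 0.0572), and VDAC3 did not pass without low-density replicate 1. A further list held 5 genes that the symbol rule missed, for subunits, related proteins and cytochrome c. Of these, DMAC2L (0.28), NDUFAB1 (0.20) and COX7A2L (0.16) were higher, and these calls did not hold without either low-density library. PPARGC1B, PPRC1, SLC25A4, TIMMDC1 and NDUFAF4 were added with their values in view.

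**Figure D5:**
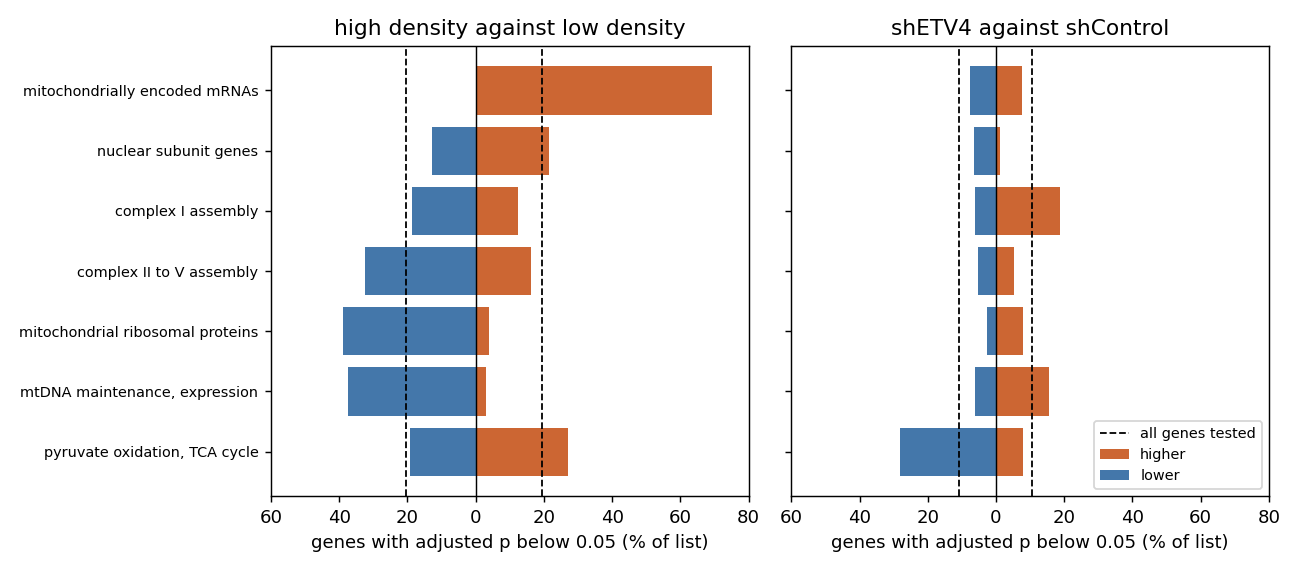
Share of each list (x axis, %) with an adjusted p below 0.05, higher to the right and lower to the left of 0, for high against low density (left) and shETV4 against shControl (right); dashed lines mark the same shares among all genes tested. After crowding, mitochondrial mRNAs (69.2% higher) and the mitochondrial ribosomal protein genes (39.0% lower) reach beyond the dashed lines in opposite directions.

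To ask whether the loss of ETV4 alters the same genes, shETV4 was compared with shControl. Few nuclear subunit genes passed the test: 1 of 78 (1.28%) was higher and 5 (6.41%) were lower, against 10.6% and 10.9% of the 17879 genes tested, and 72 did not pass. Their median log2 fold change was 0.01. DEGs numbered 0 with edgeR and with DESeq2, against 5.88% higher and 7.1% lower DEGs among all genes tested, and 1 gene had an absolute log2 fold change over 0.5 at an unadjusted p below 0.05. The shETV4 libraries differed from each other: without shETV4 replicate 1 the counts were 17 higher and 7 lower, and without shETV4 replicate 2 they were 0 higher and 11 lower. Without shControl replicate 1 they were 0 and 3, and without shControl replicate 2 they were 0 and 1.

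The 5 lower genes came from 4 complexes. COX7B, a small complex IV subunit on chromosome X (77154937 to 77162873), was at 28.8 and 28.6 FPKM with shControl and 19.7 and 21.5 FPKM with shETV4, a log2 fold change of -0.47 (SE 0.09, adjusted p = 0.00942). ATP5MC1, which encodes subunit c of the rotor ring of ATP synthase, was at 117.8 and 120.2 FPKM and at 91.6 and 84.4 FPKM (-0.43, SE 0.08, adjusted p = 0.00813). NDUFA8 of complex I, whose promoter holds the NRF1 letters shown above, was at 46.4 and 53.5 FPKM and at 34.5 and 36.9 FPKM (-0.48, SE 0.10, adjusted p = 0.0150). In each of the 3 genes both shETV4 libraries were below both shControl libraries, as in 31.5% of all genes tested. COX7B passed in every fit with a single library left out, while ATP5MC1 and NDUFA8 did not pass without shControl replicate 2 (adjusted p = 0.05345 and 0.118).

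ATP5F1B, the most abundant nuclear subunit gene, was at 461.9 and 481.1 FPKM with shControl and 383.7 and 386.9 FPKM with shETV4 (-0.29, SE 0.07, adjusted p = 0.0217). SDHA was at 33.3 and 34.0 FPKM and at 28.1 and 26.6 FPKM (-0.30, SE 0.07, adjusted p = 0.0242). The gene that was higher was ATP5PB, from 56.9 and 57.6 FPKM to 66.5 and 70.3 FPKM (0.26, SE 0.08, adjusted p = 0.0420). The libraries did not overlap for these 3 genes, as in 31.8% (higher) and 31.5% (lower) of all genes tested, but none of the 3 passed without shControl replicate 1 or without shControl replicate 2, nor did ATP5PB without shETV4 replicate 2. COX6B2, the largest riser after crowding, was at 1.27 and 1.08 FPKM with shControl and 0.890 and 0.656 FPKM with shETV4 (-0.57, SE 0.25, adjusted p = 0.136), and ATP5PD was at 152.1 and 164.2 FPKM and at 135.3 and 145.6 FPKM (-0.17, adjusted p = 0.199). NDUFA4L2 had no row in this table. Of the other isoforms, COX4I1 (0.15), COX6A1 (-0.01), COX6B1 (0.03), COX7A2 (0.05), COX8A (0.14) and NDUFA4 (0.16) did not pass.

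The mitochondrial mRNAs did not move as a block after ETV4 KD. Of 13, 1 was higher, 1 was lower (7.69% each, against the background of 10.6% and 10.9%) and 11 did not pass, with a median log2 fold change of -0.05. ND1 was at 1184 and 1386 FPKM with shControl and 1746 and 1879 FPKM with shETV4, a log2 fold change of 0.50 (SE 0.09, adjusted p = 0.00856). This put ND1 among the DEGs, at the edge of the threshold of 0.5. ND5 was at 953.6 and 899.4 FPKM and at 764.5 and 688.3 FPKM (-0.35, SE 0.07, adjusted p = 0.0138), and did not pass without shControl replicate 1 (adjusted p = 0.163). Both genes encode subunits of complex I, and for both the libraries did not overlap, as in 31.8% (higher) and 31.5% (lower) of all genes tested.

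RNR2, which lies next to ND1 on mtDNA (1671 to 3229, with ND1 from 3307 to 4262), was also higher after ETV4 KD. It was at 2195 and 2133 FPKM with shControl and 3634 and 3369 FPKM with shETV4, a log2 fold change of 0.70 (SE 0.07, adjusted p = 7.45e-04). RNR1, on the other side of RNR2, was at 474.9 and 480.9 FPKM and at 435.1 and 444.1 FPKM (-0.12, adjusted p = 0.266). ND2 (0.14), ND3 (0.21) and CYTB (0.23) lay above 0 without passing, and ND4L (-0.22), ND4 (-0.11), COX1 (-0.05), COX2 (-0.08), COX3 (-0.04), ATP6 (-0.10), ATP8 (-0.08) and ND6 (-0.04) lay below. For ND4L, shETV4 replicate 2 stood apart, at 2800 FPKM against 3788 FPKM in replicate 1 and 3899 and 3766 FPKM with shControl. The share of counts on the 13 mRNAs was 5.47% and 5.62% with shControl and 5.42% and 5.05% with shETV4, a ratio of 0.944 (exact two-sided permutation p = 0.333, the smallest possible). With the rRNAs the ratio was 0.984 and the groups overlapped, at 5.91% and 6.04% with shControl and 6.07% and 5.69% with shETV4.

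The same lists of surrounding genes were counted after ETV4 KD. In pyruvate oxidation and the TCA cycle, 7 of 25 genes (28.0%) were lower and 2 (8.0%) higher, against 10.9% and 10.6%. SUCLA2 and SUCLG2, the beta subunits of succinyl-CoA ligase, were both lower. SUCLA2 was at 45.2 and 44.3 FPKM with shControl and 28.0 and 25.4 FPKM with shETV4 (log2 fold change -0.74, SE 0.08, adjusted p = 0.00102). SUCLG2 was at 29.4 and 29.1 FPKM and at 20.8 and 18.4 FPKM (-0.57, SE 0.08, adjusted p = 0.00357). Citrate synthase (CS), picked with its value known, was lower by a log2 fold change of -0.42 (adjusted p = 0.00616). MPC1, a subunit of the mitochondrial pyruvate carrier, was higher, at 8.003 and 9.94 FPKM against 13.7 and 15.4 FPKM (0.70, adjusted p = 0.0149). The count of lower genes was 4 without either shControl library, and the count of higher genes was 0 without shControl replicate 1, where MPC1 had an adjusted p of 0.0769 (edgeR).

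Of the mitochondrial ribosomal protein genes, 6 of 77 (7.79%) were higher and 2 (2.6%) lower after ETV4 KD, against 10.6% and 10.9% of all genes tested, with MRPL1 (0.55), MRPS6 (-0.50) and MRPL15 (0.47) furthest from 0. MRPL1 was thus lower after crowding and higher after ETV4 KD, and the difference between the 2 comparisons was not tested. Without shETV4 replicate 1, 25 of the 77 were higher, and without either shControl library 2 were. Of the genes for mtDNA maintenance and expression, 5 of 32 (15.6%) were higher, among them FASTK (0.51) and FASTKD3 (0.40), and 2 (6.25%) were lower, MGME1 (-0.65) and POLG (-0.40). MGME1, a nuclease of mtDNA replication, was at 28.1 and 28.9 FPKM and at 17.4 and 18.7 FPKM (adjusted p = 0.00281), and POLG is the mtDNA polymerase, named here after its value was seen. Without shControl replicate 1 the count of higher genes of this list was 0, and FASTKD3 did not pass without shControl replicate 2 either (adjusted p = 0.136).

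Of the assembly factors, NDUFAF3 (0.53), TMEM126B (0.48) and FOXRED1 (0.28) of complex I were higher and TMEM186 (-0.42) was lower. For complexes II to V, COX19 (0.62) and SURF1 (0.50) were higher and SDHAF4 (-0.60) and COX14 (-0.56) were lower. These were 3 higher and 1 lower of 16 and 2 in each direction of 37, against 10.6% higher and 10.9% lower among all genes tested. SDHAF4, which rose after crowding, was at 12.3 and 12.4 FPKM with shControl and 9.60 and 6.67 FPKM with shETV4 (adjusted p = 0.0320), and did not pass without shControl replicate 1 (0.0570) or shETV4 replicate 2 (0.0531). Without shControl replicate 1 the counts were 0 higher and 0 lower for complex I and 0 lower for complexes II to V. Without shControl replicate 2, TMEM186 (adjusted p = 0.170), COX14 (0.187) and COX19 (0.0560) did not pass. PPARGC1A, the 1 of 9 regulators that passed, fell from 0.428 and 0.413 FPKM to 0.166 and 0.165 FPKM (log2 fold change -1.28, SE 0.21, adjusted p = 0.00619). Of the carriers and porins, SLC25A4 (0.29) and VDAC2 (0.24) were higher, and both calls were lost without either shControl library. The 5 further genes that the symbol rule missed gave 0 calls in either direction with edgeR, with DESeq2 and at an unadjusted p below 0.05. FOXRED1 and SURF1 were selected with their values known.

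Markers of other cell types were examined because subunit isoforms differ between tissues. After crowding the muscle genes ACTC1 and TNNT2 were lower, from 32.1 and 33.3 FPKM to 10.8 and 8.998 FPKM and from 4.75 and 4.50 FPKM to 1.69 and 1.20 FPKM, while MYH6 stayed below 0.1 FPKM, and MYH7 and CKM had no row. The muscle list summed to 36.9, 37.8, 12.5 and 10.2 FPKM in the low- and then the high-density libraries, and to 14.9, 15.6, 18.3 and 28.8 FPKM in the shControl and then the shETV4 libraries, with ACTC1 most abundant. Of the neuroectoderm markers, OTX2 was at 2.50 and 2.81 FPKM with shControl and 15.9 and 19.3 FPKM with shETV4 (log2 fold change 2.73, adjusted p = 1.03e-04), and led a summed level of 4.51 and 5.87 FPKM against 18.6 and 22.9 FPKM. After crowding OTX2 did not pass (0.47), and the list summed to 16.8 and 18.1 FPKM at low density against 24.9 and 17.4 FPKM at high density. Of the 4 neuroectoderm markers tested after crowding, 2 lay above 0 in log2 fold change and 2 below (lowest -0.34). PAX6, SOX1 and ZIC1 were below 0.1 FPKM in every library of a table that held them. The mesendoderm markers and the extraembryonic markers were below 1 FPKM in every library. SOX1 (2.27) and FOXA2 (-2.85) passed the test after crowding, but at these low levels neither value is read as a rise or a fall. SOX1 did not pass without low-density replicate 2 and was given no adjusted p by DESeq2. Of the 10 hESC markers, 3 were higher and 3 lower in each comparison, against 19.4% and 20.3% of all genes tested after crowding and 10.6% and 10.9% after ETV4 KD, with NANOG lower in both (-0.46 and -0.44) and SOX2 (0.41) and DPPA4 (0.28) higher after crowding. After ETV4 KD, DNMT3B (-0.82) and TDGF1 (-0.82) were lower and LIN28A (0.51) was higher. The part of such differences in the OXPHOS values was not tested.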

How the data were processed

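The authors trimmed paired reads of stranded poly-A libraries with Trimmomatic, mapped them to GRCh37 with HISAT2 2.1.0, assembled known transcripts with StringTie 2.1.3b and deposited, for each gene and library, read counts (not normalized) and FPKM (per transcript length and mapped reads). The 2 deposited tables were normalized separately and analysed apart. They also hold the authors' fold changes and p-values, which were not used, and 16 further per-sample columns, which were not used. The columns of the knockdown table that are named Test were taken as shETV4 from the labels and the study's supplementary tables. Use of strand in the counting is not given in the sources used here.

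Counts were tested on each whole table in R 4.3.3 with the robust quasi-likelihood test of edgeR 4.0.16 (filterByExpr, TMM, Benjamini-Hochberg adjustment over 17672 and 17879 genes), with 2 libraries in each group. DESeq2 1.42.0, limma 3.58.1 on log2(FPKM + 0.5), other filters, a replicate block and each library left out were alternatives. Tests were tried on simulated data. Replicates differed by more than counting noise (chi-square per degree of freedom 5.78, 12.0, 9.16 and 23.0). At the depth of these libraries (50359703 to 62410168 counts) the spread between replicates exceeds counting error, and it limits precision. Folds are of fitted counts and need not equal those of FPKM.

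Named genes are all mitochondrial mRNAs, nuclear DEGs of at least 0.5 FPKM, the 5 largest rises and falls of each table, the most abundant gene of each complex, tissue isoforms with their partners, ETV4, and the 3 genes of each list furthest from 0, among those past the test. The entries NDUFB2-AS1 and UQCRBP1 are named outside these rules. The members, lists and tests were chosen with earlier results of these data known. Positions are from GENCODE on GRCh37 and sequences from RefSeq on GRCh38.p14.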

Additional observations from a re-analysis of the deposited data

How the results depend on the processing

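Of 123 results on single named genes, 60 kept their direction and their side of the threshold in each of the 14 other settings that gave a value. The median of all genes was 0.0032 after crowding and lay between -0.0022 and 0.0115 under the other scalings, and it was -0.0012 after ETV4 KD, with -0.0024 to 0.0018. No sign is read from values this close to 0, such as the medians of complex I and of the TCA list after crowding, the nuclear median after ETV4 KD and COX6A1 after ETV4 KD. With 2 libraries in each group, the spread between replicates and not depth limits most values, apart from genes with few counts such as NDUFA4L2. In crowded hESCs, the lower nuclear genes numbered 4 with limma on FPKM, 4 with pseudocounts of 0.1 and 1, and 3 without a minimum FPKM, and the nuclear median was 0.0677, 0.0692, 0.066 and 0.068 in these 4 fits. DEGs in all numbered 2851, and 1717, 1256 (pseudocount 1) and 1839 (no minimum) with limma. COX4I1 turned to -0.012 (-0.0119 with pseudocount 1) in the limma fits. With single libraries left out, the nuclear genes ranged from 8 to 21 higher and from 4 to 12 lower, and CYTB reached -0.0439, ND1 -0.0508, ND2 -0.0157 and NDUFS5 0.0131; the highest values of the first 3 were 0.2462, 0.2624 and 0.1793, and the lowest of NDUFS5 was -0.1903. After ETV4 KD, the higher nuclear gene was lost without a filter on low counts (0) and with limma without a minimum FPKM (0). DEGs in all numbered 2321, and 1325 (pseudocount 1) and 1502 (no minimum) with limma. With single libraries left out, the nuclear genes ranged from 0 to 17 higher and from 1 to 11 lower, the nuclear median from -0.0511 to 0.0716, and the mitochondrial genes from 1 to 2 higher and from 0 to 3 lower. COX1 ranged from -0.1244 to 0.0205, COX6A1 from -0.0604 to 0.0494, COX6B1 from -0.049 to 0.1066, COX7C from -0.0532 to 0.1121, ND6 from -0.0975 to 0.0315 and UQCRH from -0.0577 to 0.2159. The ratio of the mitochondrial share was 0.984 with the rRNAs. Same-numbered libraries shared only a number: the correlation of their deviations was -0.043 for crowding and 0.212 for ETV4 KD. With the replicate number as a block, the ETV4 KD counts were 9 higher and 12 lower nuclear genes and 4 higher and 2 lower mitochondrial genes, and the crowding counts stayed within 1.5 times. The cause of these shifts was not tested. The counts of genes called in each list were refitted in settings chosen after seeing the data.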
